A study of Homo sapiens with 4 samples.

Results

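The mRNAs of 31 proteins of the small ribosomal subunit were followed through 4 libraries of RNA from MiaPaCa cells. The genes were chosen by name, as RPS genes from RPS2 to RPS29 together with RPSA and FAU, and were found by their Ensembl IDs, such as ENSG00000140988 for RPS2, ENSG00000149273 for RPS3 and ENSG00000145425 for RPS3A. All 31 were present among the 60676 IDs of the count tables, and all 31 were among the 41622 IDs tested. MiaPaCa is a long-established line from a human pancreatic carcinoma. Its cells had been electroporated with a plasmid for SRP9 variant 1 or SRP9 variant 2, each carrying a nuclear localisation signal and FLAG, selected with Geneticin and sorted for the plasmid's green fluorescent reporter. For each variant there was 1 library of RNA immunoprecipitation (RIP), the RNA pulled down through FLAG, and 1 of whole-cell RNA from the same experiment (input). All 4 libraries thus came from cells that overexpress a nuclear SRP9, and no library from cells without it, or from a precipitation without it, was used here.

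Ribosomal protein mRNAs are among the most abundant messages of a growing cell. They are translated in the cytoplasm, and their proteins return to the nucleolus, where they join ribosomal RNA in the assembling subunit. Most of them start with a run of pyrimidines at the cap, the terminal oligopyrimidine (TOP) tract, through which LARP1 and the mTOR pathway couple their translation to amino acid supply. SRP9 and its partner SRP14 sit on the Alu domain of the RNA of the signal recognition particle, which delivers ribosomes with secretory proteins to the endoplasmic reticulum. Ribosomal proteins carry no signal peptide, so their mRNAs are not classical clients of the particle.

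The start-site sequences below show the feature that most of these genes share besides their product. They are the genes at both ends of the RIP over input values described further on, plus RPS6 and FAU, as far as RefSeq's promoter table (GRCh38.p14) has an entry. Each line gives 15 bases before and 15 bases from the annotated transcript start, 5′ to 3′ on the gene's strand, and capitals mark the unbroken run of C and T that begins at the first transcribed base. For RPS19 and RPS27A, which have more than 1 annotated start, the start with such a run is shown.
RPS21, chr20:62387088-62387117, plus strand: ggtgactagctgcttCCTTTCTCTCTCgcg
RPSA, chr3:39406705-39406734, plus strand: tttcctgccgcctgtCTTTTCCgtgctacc
RPS27A, chr2:55232673-55232702, plus strand: tgcgcggcgttcttcCTTTTCgatccgcca
RPS16, chr19:39435935-39435964, minus strand: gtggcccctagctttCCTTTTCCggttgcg
RPS6, chr9:19380222-19380251, minus strand: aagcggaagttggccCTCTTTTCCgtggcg
FAU, chr11:65122120-65122149, minus strand: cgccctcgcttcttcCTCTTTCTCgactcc
RPS19, chr19:41860240-41860269, plus strand: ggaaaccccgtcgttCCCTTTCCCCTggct
RPS24, chr10:78033848-78033877, plus strand: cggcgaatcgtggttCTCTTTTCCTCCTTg
RPS14, chr5:150449725-150449754, minus strand: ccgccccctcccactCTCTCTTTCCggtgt
RPS9, chr19:54200843-54200872, plus strand: gtggcgcttccgcgcCTCTTTCTCagtgac
RPS29, chr14:49598696-49598725, minus strand: ccccgagcgcgcagcTggcagcggtggttg

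The table held 25 of the 31 genes, and RPS2, RPS15A and RPS20 are among those with no entry. A C at the first base followed by at least 4 bases that are each C or T was found at a start of 19 of these 25 genes (76.0%), read on the gene's strand only. Of all 27305 genes in the table, 1404 (5.14%) had one. The longest run among the sequences shown was 14 bases, in RPS24. The genes without a match at the annotated base were RPS4X, RPS7, RPS15, RPS26, RPS28 and RPS29, and a run that begins a few bases from the annotated start would not have been counted. Whether the tract goes with the RIP values was not tested. The median log2 fold change of RIP over input was -3.22 for the 19 genes with a match and -3.46 for the 6 without.

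In the inputs, the 31 genes together took a sizeable and nearly equal share of the RNA. They held 1.30% of all counts in the input of variant 1 (95% exact Clopper-Pearson interval 1.30% to 1.31%) and 1.27% in the input of variant 2 (1.27% to 1.27%). In the RIP libraries they held 0.227% with variant 1 (0.222% to 0.231%) and 0.369% with variant 2 (0.364% to 0.374%). The share in the input was thus 5.74 times that in the RIP library for variant 1 and 3.44 times for variant 2. These intervals cover counting error only, because each share comes from 1 library. They are too narrow where amplified reads are not independent molecules. The library totals behind them were 3921361 and 5211354 counts in the RIP libraries of variants 1 and 2, against 50454080 and 58815384 in the inputs.

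By read count, 27 and 26 of the 31 genes stood among the 1000 highest IDs of the inputs of variants 1 and 2. In the RIP libraries 8 did so with variant 1 and 17 with variant 2. The lowest, median and highest levels in the input of variant 1 were 68.2, 290.0 and 1052 CPM (a gene's counts per 1000000 counts of its library). In the input of variant 2 they were 64.9, 300.3 and 1056 CPM. In RIP variant 1 they were 11.1, 61.8 and 201 CPM, and in RIP variant 2 they were 19.0, 104 and 248 CPM. These levels are per gene and not per transcript length, so no order of transcript numbers between genes is drawn from them. Every gene had at least 43.5 counts in each library, and all 31 were above the expression filter's cutoff in all 4, so no gene was tested on the strength of its inputs alone.

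**Figure D1:**
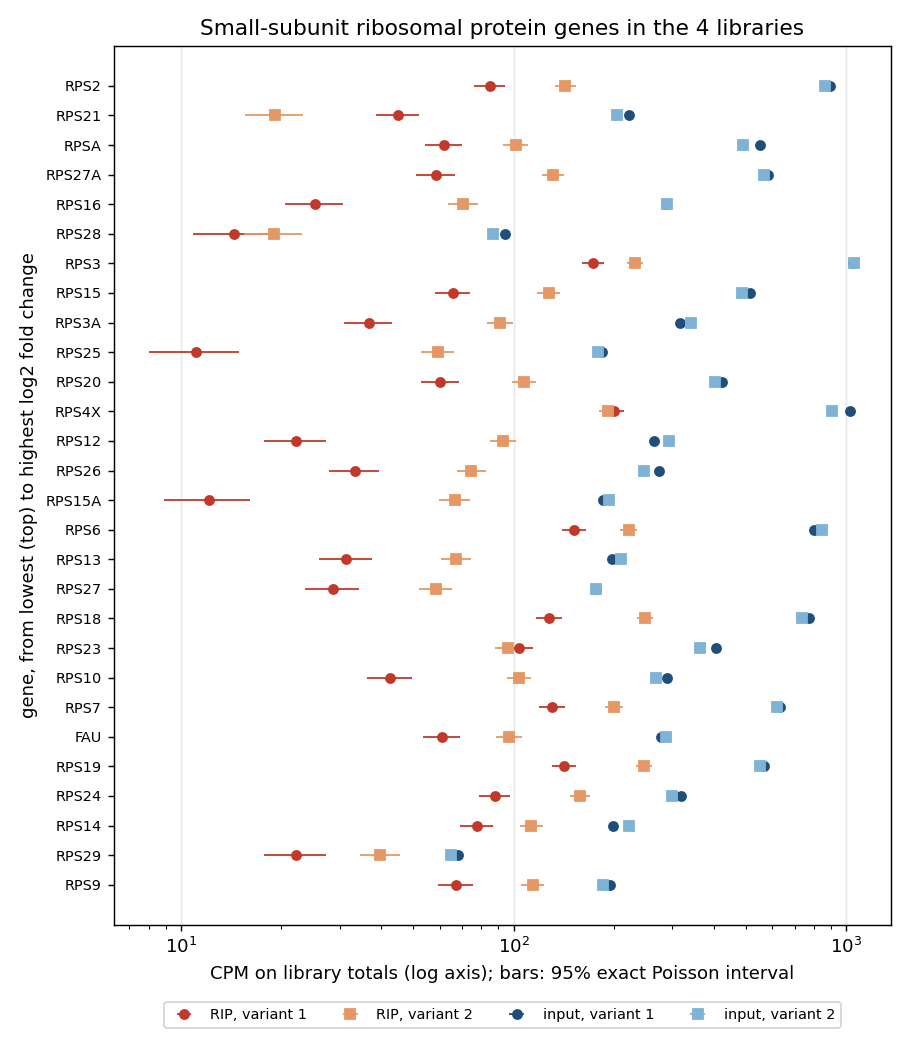
CPM of 28 of the 31 genes in the 4 libraries on a log axis, with the exact 95% Poisson interval as bars; genes are ordered from the lowest to the highest log2 fold change of RIP over input. Both RIP points lie left of both input points for all 28 genes shown, and for 25 of them RIP variant 1 lies left of RIP variant 2.

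All 31 mRNAs were lower in RIP than in input. Each was called by edgeR's quasi-likelihood test with a Benjamini-Hochberg adjusted p under 0.05, with adjusted p from 0.00060 to 0.0085. The test took the variants as 2 libraries of each fraction, after TMM scaling, which sets libraries to a common level through a trimmed mean of the genes' ratios. Because the variants are different constructs and not replicates, the spread behind the p-values is that between constructs and libraries together. The log2 fold changes ran from -4.12 to -2.24 with a median of -3.31. Both RIP libraries were below both inputs for all 31 genes, beside 23.8% of all IDs tested. Many IDs tested were near 0 in the inputs, with medians of 0.35 and 0.27 CPM for variants 1 and 2. Such IDs had little room to be lower in RIP. Of the IDs that reach 50 counts in each input, 62.4% had both RIP values under both input values. In the same test 42.2% of them were called lower and 8.31% higher, with a median log2 fold change of -1.15. Over all IDs tested, 15.8% were called lower in RIP, 49.5% were called higher, and the median log2 fold change was 3.65. These calls were 6583 lower and 20595 higher. With the variant as a block, which pairs each RIP library with its input, they were 5379 lower and 8289 higher, and without RIP variant 1 or RIP variant 2 the IDs called higher numbered 921 or 1151. Scaling by library totals moved the median of all IDs to 4.83 and the calls to 3253 lower and 24119 higher. All 31 genes were called lower in each of these fits, but on library totals their log2 fold changes were smaller, from -2.95 to -1.07 with a median of -2.14. In what follows the CPM are on library totals and the fold changes are TMM-scaled, so a fold between RIP and input is larger than the ratio of the CPM beside it. Between the RIP libraries the scalings differ little, with median log2 ratios of variant 1 over variant 2 of -0.82 (TMM) and -0.83 (library totals) over the genes.

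Abundant RNAs in general were lower in RIP, and the count of 31 of 31 has to be read against that. Of the 2090 IDs with a mean input level of at least 100 CPM, 98.8% were called lower, 0.0957% were called higher and 99.6% had both RIP libraries below both inputs. Their median log2 fold change was -2.96. Of the 31 genes, 29 belong to this set, and 25 of the 31 were below its median. RPS2 alone of the 31 lay among its lowest 10%. The genes' median minus the median of this set was 0.00069 without RIP variant 1 and -0.81 without RIP variant 2. The fall deepened with input abundance across the 2090 IDs, and the genes followed it less steeply. In the band from 100 to under 250 CPM the median log2 fold change was -2.73 over 1416 IDs and -3.21 over the 8 genes there. From 250 to under 500 CPM it was -3.28 over 425 IDs and -3.28 over 10 genes. At 500 CPM and above it was -3.66 over 249 IDs and -3.47 over 11 genes. The log2 fold changes of the 29 genes in these bands thus lay within the spread of IDs of the same input level. RPS28 and RPS29 had lower input levels and were not compared in this way.

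**Figure D2:**
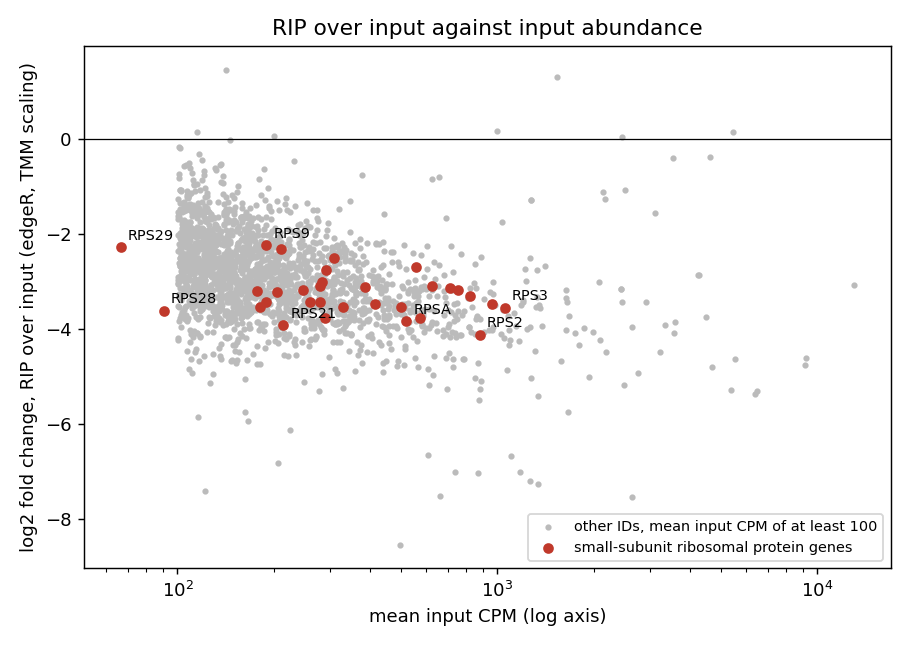
Log2 fold change of RIP over input against mean input CPM (log axis), for the 31 genes in red and the other IDs with a mean input CPM of at least 100 in grey. The red points lie between -4.12 and -2.24. All but RPS28 and RPS29, which have lower input levels, lie inside the grey cloud, which itself falls to the right.

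The proteins of the subunit's body and platform, which carry the mRNA channel and the contact with the large subunit, held both ends of the range. RPS2, which lines the mRNA entry channel, stood at 84.7 and 143 CPM in RIP variants 1 and 2. Its inputs had 895 CPM with variant 1 and 864 CPM with variant 2. Its log2 fold change was the lowest of all, at -4.12 (SE 0.32, edgeR adjusted p = 0.00066), which is 17.4-fold lower in RIP after TMM scaling, and -2.95 on library totals. RPS21 had 44.9 and 19.2 CPM in RIP variants 1 and 2 and 223 and 205 CPM in the inputs (log2 fold change -3.92, SE 0.45, edgeR adjusted p = 0.0016). It sits next to RPSA on the subunit. RPSA, also known as the laminin receptor precursor, had 61.8 and 102 CPM against 549 and 489 CPM (log2 fold change -3.84, SE 0.32, edgeR adjusted p = 0.00070). For these 3 genes the RIP libraries were far below the inputs, and RPS21 was the only one with less in RIP variant 2 than in RIP variant 1.

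At the other end, RPS9, which helps to fold the ribosomal RNA early in assembly, had 67.1 and 114 CPM in RIP variants 1 and 2 and 194 and 185 CPM in the inputs. Its log2 fold change of -2.24 (SE 0.31, edgeR adjusted p = 0.0029) was the smallest fall, 4.74-fold after TMM scaling, and it was -1.07 on library totals. RPS14, a platform protein whose loss underlies the anaemia of the chromosome arm 5q deletion syndrome, had 77.5 and 113 CPM against 200 and 222 CPM (log2 fold change -2.32, SE 0.28, edgeR adjusted p = 0.0018). RPS24, 1 of the genes mutated in Diamond-Blackfan anaemia, had 88.0 and 158 CPM against 318 and 300.3 CPM (log2 fold change -2.51, SE 0.33, edgeR adjusted p = 0.0023). Both RIP libraries lay below both inputs for each of them, beside 99.6% of the IDs with a mean input of at least 100 CPM and 23.8% of all IDs tested. The higher RIP value was that of variant 2 in each.

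RPS6, the substrate of the S6 kinases downstream of mTOR, lay at the median of the 31. It had 152 and 222 CPM in RIP variants 1 and 2 and 801 and 846 CPM in the inputs (log2 fold change -3.31, SE 0.27, edgeR adjusted p = 0.00068). FAU encodes the small-subunit protein eS30 as a fusion with a ubiquitin-like protein. It had 60.8 and 96.9 CPM in RIP against 278 and 287 CPM in the inputs (log2 fold change -3.02, SE 0.30, edgeR adjusted p = 0.0011). RPS4X, encoded on the X chromosome, had 201 and 193 CPM in RIP against 1025 and 904 CPM. It was 1 of the 3 genes with the highest input counts and fell by 3.47 on the log2 scale (SE 0.22, edgeR adjusted p = 0.00060). RPS27, a zinc-finger protein and 1 of the 3 with the lowest input counts, had 28.6 and 58.5 CPM in RIP against 177 and 177 CPM and fell by 3.20 (SE 0.38, edgeR adjusted p = 0.0018).

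The 13 proteins of the subunit's head, where the decoding cleft closes over the tRNAs, had a median log2 fold change of -3.48. It was -3.21 for the 18 of the body and platform. Against the own input this order held with variant 1 only, with medians of -3.95 for the head and -3.51 for the body and platform. With variant 2 these were -2.82 and -2.93. RPS27A, made as a fusion with ubiquitin, was the lowest of the head. It had 58.4 and 132 CPM in RIP variants 1 and 2 and 583 and 567 CPM in the inputs (log2 fold change -3.77, SE 0.41, edgeR adjusted p = 0.0014). RPS16, whose tail reaches the peptidyl site, had 25.2 and 70.6 CPM against 287 and 289 CPM (log2 fold change -3.76, SE 0.49, edgeR adjusted p = 0.0024). RPS3, at the mRNA entry, had the highest input counts, with 174 and 232 CPM in RIP against 1052 and 1056 CPM (log2 fold change -3.55, SE 0.24, edgeR adjusted p = 0.00060). RPS28 had 14.4 and 19.0 CPM in RIP, among the lowest RIP values, against 94.1 and 86.8 CPM in the inputs (log2 fold change -3.62, SE 0.31, edgeR adjusted p = 0.00078).

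RPS19, the gene most often mutated in Diamond-Blackfan anaemia, and RPS29, a zinc-binding protein, fell least in the head. RPS19 had 142 and 247 CPM in RIP variants 1 and 2 and 565 and 553 CPM in the inputs (log2 fold change -2.70, SE 0.31, edgeR adjusted p = 0.0017). RPS29 had 22.2 and 39.7 CPM in RIP, and 68.2 and 64.9 CPM in the inputs were the lowest input levels of the 31 (log2 fold change -2.28, SE 0.37, edgeR adjusted p = 0.0043). In RefSeq the RPS29 locus overlaps RN7SL1, a gene for the signal recognition particle RNA, and the pseudogene RPL32P29. Whether reads of these neighbours entered the RPS29 count was not tested.

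Each variant was next set against its own input, with no test because each side is 1 library. With variant 1 the 31 log2 ratios ran from -5.22 to -2.54 with a median of -3.78, and with variant 2 from -4.58 to -1.87 with a median of -2.89. All 31 genes were at least 2-fold lower in RIP with either variant after TMM scaling, beside 23.1% of all IDs tested with variant 1 and 21.2% with variant 2. Among the IDs with a mean input of at least 100 CPM these shares were 97.9% and 98.0%. At least 8-fold lower were 28 of the 31 genes with variant 1 and 14 with variant 2, beside 8.60% and 6.08% of all IDs tested and 48.8% and 48.8% of the abundant IDs. On library totals fewer genes passed these bounds. At least 2-fold lower were then 31 with variant 1 and 27 with variant 2 (the exceptions being RPS9, RPS29, RPS24 and RPS14), beside 78.1% and 81.3% of the abundant IDs. At least 8-fold lower were 9 with variant 1 and RPS21 alone with variant 2, beside 12.2% and 9.04% of the abundant IDs. For the abundant IDs the medians of the variants were nearly the same, at -2.96 with variant 1 and -2.98 with variant 2. Within bands of input level, the genes' median with variant 1 was -3.65 against -2.71 for all IDs from 100 to under 250 CPM, -3.97 against -3.30 from 250 to under 500 CPM, and -3.77 against -3.73 at 500 CPM and above. With variant 2 these were -2.76 against -2.76, -2.86 against -3.24, and -3.10 against -3.78. With variant 1 the genes' median was thus the lower in the first 2 bands and nearly the same in the highest, and with variant 2 it was nearly the same in the lowest band and the higher in the others. Across the 31 genes, the ratios of the variants correlated at 0.40 (Pearson) or 0.43 (Spearman), given as a description since all genes share the same 4 libraries.

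The RIP libraries of the variants differed for these mRNAs while the inputs did not differ by much. In RIP, 27 of the 31 genes were lower with variant 1 than with variant 2, beside 51.1% of all IDs tested and 47.8% of those with a mean input of at least 100 CPM. The median log2 ratio of RIP variant 1 over RIP variant 2 was -0.82 over the genes, -0.03 over all IDs tested and 0.03 over the abundant IDs. Of all IDs tested 26.5% and of the abundant IDs 12.2% were at or below the genes' median. At least 2-fold lower with variant 1 were 11 of the 31 genes, beside 22.8% of all IDs tested and 8.56% of the abundant IDs. The 95% exact counting interval of the ratio lay wholly below 1 for 26 genes and wholly above 1 for RPS21 alone among the 31, beside 34.1% and 37.9% of the abundant IDs and 31.7% and 30.6% of all IDs tested. RPS21 was also the only gene of the 31 that was at least 2-fold higher with variant 1, beside 18.7% of all IDs tested and 7.61% of the abundant IDs. Between the inputs, the median log2 ratio was 0.07, the range was -0.13 to 0.20, and 0 of the 31 genes differed by 2-fold. Of all IDs tested, 10.8% were at least 2-fold lower and 14.1% at least 2-fold higher in the input of variant 1, and of the abundant IDs 0.144% and 0%. With 1 library of each kind, a difference between the variants and a difference between these precipitations or libraries cannot be told apart.

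**Figure D3:**
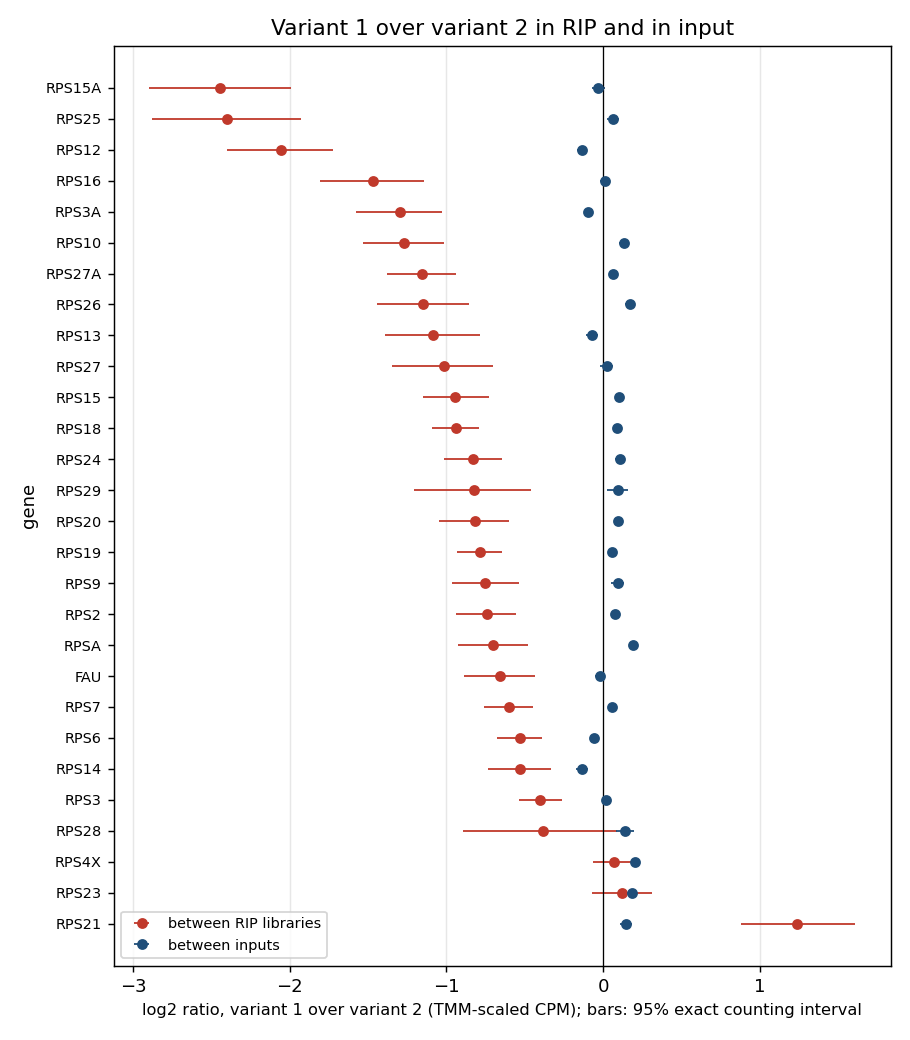
Log2 ratio of variant 1 over variant 2 for 28 of the 31 genes, between the RIP libraries in red and between the inputs in blue, on TMM-scaled CPM with exact 95% counting intervals. The red points reach from RPS15A at the left to RPS21 at the right and 25 of them lie below 0, while the blue points stay between -0.13 and 0.20.

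The widest gaps belonged to RPS15A, RPS25 and RPS12, which had few reads in RIP variant 1. RPS15A, a body protein that binds the central domain of the ribosomal RNA, had 47.5 counts in RIP variant 1, or 12.1 CPM (8.92 to 16.1, exact 95% Poisson interval), and 347 counts in RIP variant 2, or 66.6 CPM (59.8 to 74.0). Its inputs had 186 and 193 CPM. It was 5.44-fold lower in RIP variant 1 on TMM-scaled CPM (ratio 0.184, counting interval 0.134 to 0.252). RPS25, a head protein needed for initiation at several viral internal ribosome entry sites, had 43.5 counts (11.1 CPM) in RIP variant 1 and 309 counts (59.3 CPM) in RIP variant 2, while its inputs had 184 and 179 CPM. It was 5.29-fold lower in RIP variant 1 (ratio 0.189, interval 0.136 to 0.263). RPS12, a head protein, had 87 counts (22.2 CPM) and 486 counts (93.3 CPM), while its inputs had 264 and 293 CPM, and was 4.16-fold lower in RIP variant 1 (ratio 0.240, interval 0.189 to 0.302). These 3 genes were also called lower in RIP than in input, with the 3 highest edgeR adjusted p of the list. For RPS15A the log2 fold change of RIP over input was -3.44 (SE 0.72, edgeR adjusted p = 0.0085), for RPS25 -3.54 (SE 0.71, 0.0076) and for RPS12 -3.44 (SE 0.63, 0.0060).

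RPS16 was 2.77-fold lower in RIP variant 1 (interval of the ratio 0.286 to 0.452) and RPS27A 2.23-fold lower (0.384 to 0.521). RPSA and RPS6 were 1.63-fold and 1.45-fold lower. RPS4X and RPS23, both of the body, had ratios of 1.05 and 1.09, whose intervals include 1. RPS28, with 56.5 counts in RIP variant 1, had a ratio of 0.765 and an interval from 0.537 to 1.06. RPS29, with the same 87 counts there as RPS12, had a ratio of 0.565 (interval 0.434 to 0.728). RPS21 went the other way, with 176 counts in RIP variant 1 and 100 in RIP variant 2, a ratio of 2.36 (interval 1.84 to 3.05), while its inputs had a ratio of 1.11. By place, all 13 genes of the head and 14 of the 18 of the body and platform were lower in RIP variant 1. This stands beside 27 of all 31 genes, 51.1% of all IDs tested and 47.8% of the abundant IDs. The medians were -0.94 for the head and -0.68 for the body and platform, and a difference between the places was not tested.

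**Figure D4:**
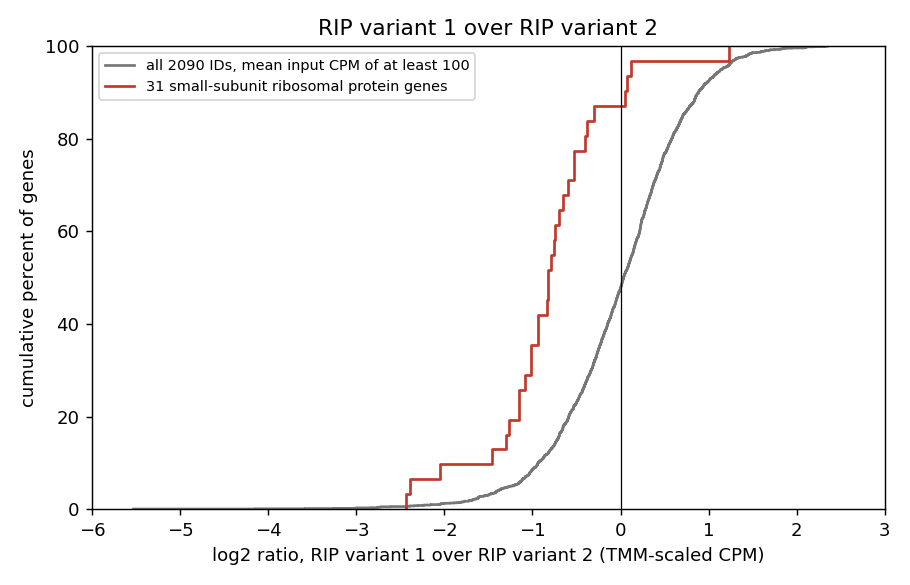
Cumulative percent of genes by log2 ratio of RIP variant 1 over RIP variant 2, for the 31 genes in red and the 2090 IDs with a mean input CPM of at least 100 in grey. The red curve is shifted to the left, with medians of -0.82 and 0.03, and it reaches the right side of 0 with 4 genes.

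Taking the inputs into account did not alter the picture. The fall from input to RIP was larger with variant 1 for 30 of the 31 genes, RPS21 being the exception, beside 52.6% of all IDs tested and 49.0% of the abundant IDs. It was at least 2-fold larger for 12 genes, beside 29.4% of all IDs tested and 9.23% of the abundant IDs. The test of RIP against input with 1 RIP library left out restates this difference, because the same libraries enter it. Without RIP variant 1 the genes' median log2 fold change was -2.98 and that of the abundant IDs -2.99. Without RIP variant 2 these were -3.77 and -2.96. These medians are thus no separate support.

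The genes kept much of their order by read count within RIP. Across the 31 genes the log2 scaled CPM of RIP and input had a Pearson correlation of 0.80 with variant 1 and 0.83 with variant 2, and the inputs correlated at 0.995. The RIP libraries correlated at 0.78. By rank (Spearman), the correlation of RIP and input was 0.79 with variant 1 and 0.85 with variant 2. It was 0.99 between the inputs and 0.86 between the RIP libraries. All these values of a gene share its transcript length, and the 31 points of a library share its depth.

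Ribosomal protein genes have many processed pseudogenes, and reads that match several copies can be divided between them. RefSeq names 681 pseudogenes after these 31 genes, from 4 for RPS9 and FAU to 74 for RPSA. For 27 genes at least 1 library held a fraction of a count. RPS14, RPS16 and RPS21 were among the 4 genes with whole counts in all libraries, and the 4 genes' log2 fold changes, from -3.92 to -2.32 with a median of -3.26, lay within those of the other 27 (-4.12 to -2.24, median -3.31). Between the RIP libraries, 3 of these 4 were lower with variant 1, with log2 ratios of -0.53 for RPS14 and -1.46 for RPS16, and the exception was RPS21. In RefSeq, 9 of the 31 genes contain a snoRNA gene, as intron-encoded snoRNAs are common in ribosomal protein genes. Their median log2 fold change was -3.48, against -3.19 for the 22 without. How much of the counts came from introns or from the snoRNAs was not tested.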

How the data were processed

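Whole-cell and precipitated RNA of 1 RIP and 1 input library per SRP9 variant was analysed. The deposited values are estimated counts for each Ensembl ID, left unnormalized, per the file headers, and some hold fractions of a read. The submitters' processing notes name HISAT2 2.1.0, featureCounts, Subread 2.0.0 and GRCh38.p13. For annotation release, strand and multi-mapping the settings are not given in the sources used.

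Counts were rounded and fitted over the whole table with edgeR 4.0.16 (R 4.3.3): TMM scaling, expression filter by fraction (minimum count 10), quasi-likelihood test with 2 residual degrees of freedom, Benjamini-Hochberg adjustment over 41622 IDs, calls at 0.05. SE is the log2 fold change divided by the root of the test's F. Single libraries were compared by log2 ratios of TMM-scaled CPM (prior count 2); folds of single genes are ratios without a prior. A count of 3 is 0.0510 to 0.765 CPM. Alternatives were other scalings, filters, DESeq2 1.42.0, limma-voom (limma 3.58.1), halved counts, a variant block, and each library left out. The fits were also run on simulated data in which a small part of the IDs changed, evenly up and down. In the real libraries far more IDs were called, mostly higher, so that run does not test the scaling.

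By the labels, RIP and input of a variant form a pair. Values are printed in full for the 5 genes at each end of the fold changes, the 3 with the highest and the 3 with the lowest input counts, the 3 furthest apart between RIP libraries, RPS27A, FAU, RPS6 and RPSA; others were named after their values were seen. Genes and lists were chosen with earlier results of these data known. The bands of input level, the fit of whole-valued IDs and the block with the input filter were chosen after seeing the data. RefSeq's table (59792 genes) pairs 0 with an Ensembl ID, so the other gene lists (large subunit, assembly factors, initiation factors, TOP regulators, cell type markers) and the level of SRP9 were not computed. A few genes enter the counts and medians and are not reported here by name.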

Additional observations from a re-analysis of the deposited data

Results flagged for a closer look

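For 12 of the genes named above, variant 1 was below variant 2 between the RIP libraries and above it between the inputs. With 1 library behind each value this was not tested, and the input ratios were close to 0. The log2 ratios of RIP variant 1 over RIP variant 2 were -2.39 for RPS25, -1.46 for RPS16, -1.16 for RPS27A, -1.01 for RPS27, -0.83 for RPS24, -0.82 for RPS29, -0.79 for RPS19, -0.75 for RPS9, -0.74 for RPS2, -0.70 for RPSA, -0.40 for RPS3 and -0.38 for RPS28. The matching input ratios lay between 0.01 for RPS16 and 0.19 for RPSA, and on library totals those of RPS16, RPS3 and RPS27 were below 0, so these 3 lose the pattern there. Opposite signs of this kind were found for 19 of the 31 genes in all (16 on library totals), beside 19.2% of all IDs tested and 27.0% of the IDs with a mean input of at least 100 CPM.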

How the results depend on the processing

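All 31 genes were called lower in RIP, and 0 higher, under each alternative that tested them, including the variant as replicate block (median log2 fold change -3.34, edgeR adjusted p at most 0.0038), which changed no call among them. On library totals the largest adjusted p rose to 0.045 (edgeR). The fit of whole-valued IDs tested only 4 of the genes and called 4. The median of -3.31 moved to -2.14 on library totals, to -2.20 when the IDs that reach 50 counts in each input were fitted alone, and to -2.22 with the block added to that; the gap to the median of the abundant IDs stayed at -0.36, -0.36 and -0.34. Leaving out 1 library gave medians from -3.77 to -2.98, and the gap was 0.00069 without RIP variant 1 and -0.81 without RIP variant 2. Such a fit takes the spread of the single library from the other fraction. The median ratio to the own input was -2.60 on library totals and -3.44 on DESeq2 size factors with variant 1, and -1.72 and -2.56 with variant 2. Between the RIP libraries it was -0.78 on DESeq2 size factors, and 27 genes stayed lower with variant 1 under each scaling and prior count. Between the inputs it was 0.049 on library totals and 0.10 on DESeq2 size factors. The input ratio changed sign on library totals for RPS16 (-0.011), RPS3 (-0.0058) and RPS27 (-0.00081), and on DESeq2 size factors for RPS15A (3.6e-05) and FAU (0.0085). Over all IDs tested the calls were 8289 higher with the replicate block, 3253 lower on library totals, and 3655 lower and 3418 higher in the fit at 50 counts; without RIP variant 1 or RIP variant 2 only 921 or 1151 IDs were called higher. Over all alternatives the cause of a shift was not tested, and scaling is a limit on the size of every RIP over input value. Depth is a further limit: at 43.5 counts the counting interval of RPS25 in RIP variant 1 runs from 8.04 to 14.9 CPM.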
